A study of Mus musculus with 10 samples.

Results

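The genes described here are the Hox genes of the 4 mammalian Hox clusters, taken as every symbol of the form Hoxa, Hoxb, Hoxc or Hoxd followed by a number among the array's probe sets annotated to exactly 1 gene symbol. There were 33 such genes among the 18193 genes measured, carried by 48 of 34945 probe sets, and where several measured 1 gene, the brightest on average was used. Cluster a, on mouse chromosome 6, gave 9 genes, cluster b on chromosome 11 gave 9, cluster c on chromosome 15 gave 7, and cluster d on chromosome 2 gave 8.

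Hox genes encode homeodomain transcription factors that give cells their address along the head-to-tail axis. Within a cluster they are numbered in paralog groups 1 to 13 by their order on the chromosome, and low-numbered genes are in general switched on earlier and reach further toward the head than high-numbered ones. Retinoic acid and Cdx factors turn clusters on, Polycomb complexes keep them silent and trithorax complexes keep them active, and Hox proteins bind DNA together with Pbx and Meis partners. In the lung, Hox genes of the a and b clusters, Hoxa5 above all, are known for their part in the mesenchyme that instructs the branching epithelium.

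The cultures started from embryonic stem cells of C57BL/6 mice, and the study asked whether KGF together with dexamethasone and raised cAMP leads them toward alveolar type II cells, which make surfactant. At day 8 there was a control array and an array with KGF (keratinocyte growth factor, an epithelial mitogen). At days 17 and 24 there were 4 arrays each, for control, KGF, DCI, and KGF with DCI. The labels do not spell out DCI, which is taken here as the dexamethasone and cAMP treatment of the title. Each condition had 1 array, and the labels do not say how many cultures stood behind it.

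Differences below are on the log2 scale of the deposited values, so that 1 is a 2-fold difference. They come from an additive model of day, KGF and DCI fitted to the 10 arrays together (limma, 5 residual degrees of freedom), with ± 1 standard error. A gene passed at a Benjamini-Hochberg adjusted p under 0.05 over all 18193 genes. With no replicates, the spread behind every error and p holds variation between cultures, array noise and any departure from additive effects, which cannot be told apart. RNA came from whole cultures, in which fewer cells of a type and less RNA per cell cannot be told apart. The day 8 control array stood apart in RNA control signals. Its Actb 3′ probe set exceeded the 5′ one by 1.05, where the other 9 arrays gave 0.459 to 0.620, and Gapdh gave 0.438, where the others gave -0.0205 to 0.115. The mean of 6 pluripotency markers lay between 4.51 and 6.10 on the 10 arrays.

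Hox signals sat low on the array scale. Of the 33 genes, 14 had a mean under the 25th percentile of all values (4.54), which was 42.4% of them against 24.1% of all genes. Only Hoxa5, Hoxb2, Hoxb3, Hoxb4, Hoxc4, Hoxd8 and Hoxd9, which are 7 of the 33 (21.2%), reached the median of all values (6.67) on any array, against 58.4% of all genes. A probe set's level also depends on its probes, so these figures locate the signals and rank no gene against another. The median range over the 10 arrays was 0.772 for Hox genes and 0.767 for all genes, and a range of at least 1 was found for 13 of 33 (39.4%) against 35.5%.

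**Figure D1:**
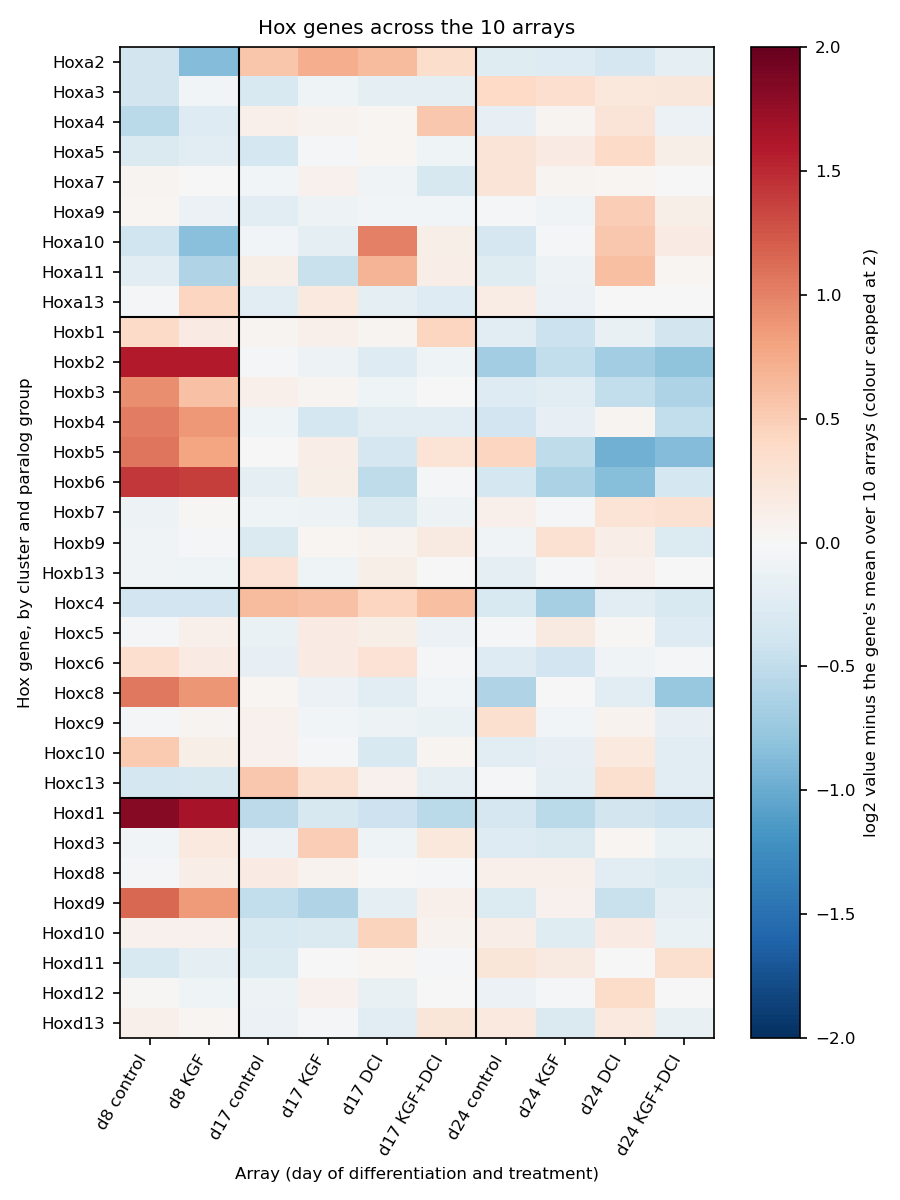
Heat map of the 33 Hox genes (rows, by cluster and paralog group) on the 10 arrays (columns, by day and treatment), coloured by the log2 value minus the gene's mean over the arrays, with the colour scale running from -2 to 2. Hoxb2 to Hoxb6, Hoxc8, Hoxd1 and Hoxd9 are red at day 8 and Hoxa2 and Hoxc4 are red at day 17.

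Promoter sequence was available from RefSeq (GRCm38.p6) for 19 of the 33 genes, in 21 windows of 250 bases ending just before the annotated start. Those of some genes whose differences passed are printed for reading beside the values, 5′ to 3′ on the gene's strand. Capitals mark a match to a searched motif on either strand. The searched letters were TGATTNAT (a Hox-Pbx type site), AGGTCA (a short nuclear receptor element of the kind that retinoic acid receptors bind), TGACGTCA (the cAMP response element), TTTATTGC (a Cdx type site), and by name the glucocorticoid receptor type and the retinoic acid receptor DR5 type. No match of one motif overlapped a match of another in these windows. Hoxb2, Hoxb3, Hoxb6 and Hoxc8, which fell after day 8, had no window, and that of Hoxd9, which also fell, held 0 matches and is not printed. Hoxd1 (chr2:74762730-74762979, plus strand) and Hoxb4 (chr11:96318017-96318266, plus strand) are among the genes that fell after day 8.
Hoxd1: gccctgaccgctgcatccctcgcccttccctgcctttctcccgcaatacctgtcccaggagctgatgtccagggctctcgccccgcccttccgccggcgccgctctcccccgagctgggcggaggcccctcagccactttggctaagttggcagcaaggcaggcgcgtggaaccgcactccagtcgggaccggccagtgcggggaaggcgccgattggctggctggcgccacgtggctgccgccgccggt
Hoxb4: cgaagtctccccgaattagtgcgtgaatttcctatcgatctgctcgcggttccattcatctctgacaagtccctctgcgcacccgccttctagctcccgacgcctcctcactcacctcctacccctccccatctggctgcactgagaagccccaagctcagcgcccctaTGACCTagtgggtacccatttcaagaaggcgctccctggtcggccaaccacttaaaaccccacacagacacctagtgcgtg
Hoxa2 (chr6:52164832-52165081, minus strand) and Hoxc4 (chr15:103034145-103034394, plus strand) stand for the genes highest at day 17.
Hoxa2: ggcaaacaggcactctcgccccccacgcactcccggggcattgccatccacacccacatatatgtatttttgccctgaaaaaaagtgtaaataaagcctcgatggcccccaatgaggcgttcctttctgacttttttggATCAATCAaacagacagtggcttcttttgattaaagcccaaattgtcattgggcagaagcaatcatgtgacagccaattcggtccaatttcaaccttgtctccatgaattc
Hoxc4: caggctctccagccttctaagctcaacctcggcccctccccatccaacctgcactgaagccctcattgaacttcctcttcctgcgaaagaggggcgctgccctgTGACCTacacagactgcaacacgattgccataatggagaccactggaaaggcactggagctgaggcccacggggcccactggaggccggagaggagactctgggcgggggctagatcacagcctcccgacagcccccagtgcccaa
Hoxa10, with 2 annotated starts (chr6:52234940-52235189 and chr6:52240855-52241104, both minus strand), and Hoxa11 (chr6:52245811-52246060, minus strand) are the genes higher with DCI.
Hoxa10, start nearer Hoxa9: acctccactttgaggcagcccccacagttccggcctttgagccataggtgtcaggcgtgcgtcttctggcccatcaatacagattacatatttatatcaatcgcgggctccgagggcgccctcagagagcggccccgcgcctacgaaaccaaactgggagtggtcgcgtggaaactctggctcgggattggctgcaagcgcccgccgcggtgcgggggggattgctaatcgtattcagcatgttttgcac
Hoxa10, start nearer Hoxa11: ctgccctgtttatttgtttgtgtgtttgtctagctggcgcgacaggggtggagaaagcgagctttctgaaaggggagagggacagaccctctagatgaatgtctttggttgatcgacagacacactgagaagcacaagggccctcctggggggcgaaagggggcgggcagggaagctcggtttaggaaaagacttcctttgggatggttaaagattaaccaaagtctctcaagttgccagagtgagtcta
Hoxa11: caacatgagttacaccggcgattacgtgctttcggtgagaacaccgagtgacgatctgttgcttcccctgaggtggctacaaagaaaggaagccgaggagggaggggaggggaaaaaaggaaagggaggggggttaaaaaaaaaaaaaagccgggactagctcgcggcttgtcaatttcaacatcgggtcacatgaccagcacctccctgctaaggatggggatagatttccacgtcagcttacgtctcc

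The Hoxa2 match was to the Hox-Pbx type motif, from -111 to -104 counted from the start, and 2 of 21 Hox windows (9.52%) held that motif against 2.825% of the 32851 windows of all genes. The Hoxb4 match, from -81 to -76, and the Hoxc4 match, from -146 to -141, were to AGGTCA, which 5 of 21 Hox windows (23.81%) and 14.024% of all windows held. Hoxb4 fell and Hoxc4 rose after day 8. The cAMP response element (1.546% of all windows), the Cdx type (0.871%), the glucocorticoid receptor type (0.387%) and the DR5 type (0.009%) were in 0 of the 21 windows, those of Hoxa10 and Hoxa11 included. Hox windows had a median GC content of 59.2%, against 52.4% for all windows.

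From day 8 to day 17, 11 of the 33 Hox genes passed, in both directions. Hoxb2, Hoxb3, Hoxb4 and Hoxb6 of cluster b fell, as did Hoxc8, Hoxd1 and Hoxd9, while Hoxa2 and Hoxa4 of cluster a and Hoxc4 and Hoxc13 of cluster c rose. The falls were 1.55-fold to 3.12-fold, leaving out Hoxd1, whose later values were too dim for a fold. The largest rise among the probe sets used was 2.34-fold. Second probe sets of Hoxa5 (1.77 ± 0.25), Hoxc5 and Hoxa3 also rose in this step, where the sets used did not pass, as described with the probe sets. In counts, 7 of 33 Hox genes were lower, where 21% of all genes tested were lower, and 4 were higher, where 21.4% of all genes were higher. The share of Hox genes called was thus near the background in the falling direction and below it in the rising one, and the median difference was -0.06 for Hox genes and -0.02 for all genes. At an unadjusted p under 0.05 there were 12. All 11 genes called moved the same way in both matched pairs (control against control and KGF against KGF). For each of them the 2 day 8 arrays did not overlap the 4 day 17 arrays. The calls rest on these same values, so this adds no separate support, and the share of all genes that did so was not counted. Hoxa10, Hoxb5 and Hoxc10 did so too without passing.

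Hoxd1, one of the most head-ward genes of cluster d, read 5.02 in the day 8 control and 4.85 with KGF. On the 8 later arrays it lay between 2.66 and 2.87, among the lowest values on the arrays, since the 10th percentile of all values was 3.26. Both day 8 arrays stood above all others, and the difference was -2.19 ± 0.12 (adjusted p = 1.88e-07). No fold is given, since so dim a signal only bounds the level. From day 17 to day 24 it did not pass, at 0.03 ± 0.09.

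Hoxb2, which patterns the hindbrain and the nerves of the face, read 9.76 on both day 8 arrays. At day 17 it read 8.13 (control), 8.07 (KGF), 7.91 (DCI) and 8.08 (both treatments). By day 24 these had become 7.48, 7.67, 7.48 and 7.36. Every day 17 array lay below every day 8 array and above every day 24 array. The fall was 1.64 ± 0.10 by day 17 on the log2 scale (3.12-fold, adjusted p = 2.63e-07). It was a further -0.55 ± 0.07 by day 24 (adjusted p = 0.00023, in 4 of 4 pairs).

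Hoxb3, which also acts in the hindbrain and pharyngeal arches, went the same way in smaller steps. It read 7.97 and 7.62 at day 8, from 6.96 to 7.14 at day 17, and from 6.43 to 6.83 at day 24, so that the 3 days did not overlap. The differences were -0.63 ± 0.12 (adjusted p = 0.0019) and -0.41 ± 0.09 (adjusted p = 0.0065). Its other probe set gave -0.31 (adjusted p = 0.052) and -0.24 (adjusted p = 0.054), the same direction without passing.

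Hoxb4, known for expanding blood stem cells when overexpressed, read 7.29 in the day 8 control and 7.14 with KGF. At day 17 it read 6.18, 5.92, 6.07 and 6.06 in control, KGF, DCI and both, and at day 24 it read 5.89, 6.11, 6.32 and 5.78. The day 8 arrays were the highest, and days 17 and 24 overlapped. The first step was -1.17 ± 0.16 (2.26-fold lower, adjusted p = 0.00015) and the second, at -0.03 ± 0.12, did not pass.

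Hoxb6, a gene of trunk and lateral plate mesoderm, read 5.55 and 5.52 at day 8. At day 17 the values were 3.93, 4.25, 3.63 and 4.11 in control, KGF, DCI and both, and at day 24 they were 3.78, 3.49, 3.28 and 3.77. The day 8 arrays stood apart, and those of days 17 and 24 overlapped and were low on the array scale. It fell by 1.47 ± 0.18 in the first step (2.77-fold, adjusted p = 7.79e-05). In the second step the difference was -0.40 ± 0.14 (adjusted p = 0.0445, 4 of 4 pairs), a call kept in only 3 of the 10 fits that left out an array.

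Hoxb5, which lies between them and takes part in lung branching, read 5.76 and 5.47 at day 8 and 4.68, 4.83, 4.35 and 4.95 at day 17. At day 24 it read 5.12 (control), 4.17 (KGF), 3.73 (DCI) and 3.82 (both treatments). The day 8 arrays did not overlap those of day 17, but the day 24 control lay above all 4 of day 17. The first step, -0.67 ± 0.31, did not pass (adjusted p = 0.11), nor did the second, -0.49 ± 0.23 (adjusted p = 0.13). Hoxb2 to Hoxb6 lie next to each other in the RefSeq gene table, and 4 of these 5 passed in the first step. Of the other cluster b genes, Hoxb1, Hoxb7, Hoxb9 and Hoxb13, none passed, with differences from -0.17 to 0.13.

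Outside cluster b, Hoxc8, a gene of the thoracic trunk, read 6.58 and 6.41 at day 8, from 5.30 to 5.57 at day 17 and from 4.77 to 5.54 at day 24. The first step was -0.99 ± 0.22 (1.98-fold lower, adjusted p = 0.0036). Hoxd9, a gene of the lower trunk and limb, read 8.05 and 7.75 at day 8, and 6.42, 6.30, 6.73 and 7.01 at day 17 in control, KGF, DCI and both. At day 24 it read 6.64, 6.99, 6.46 and 6.73. It fell by 1.36 ± 0.21 in the first step (2.57-fold, adjusted p = 0.00040). In both genes the day 8 arrays were the highest and days 17 and 24 overlapped.

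**Figure D2:**
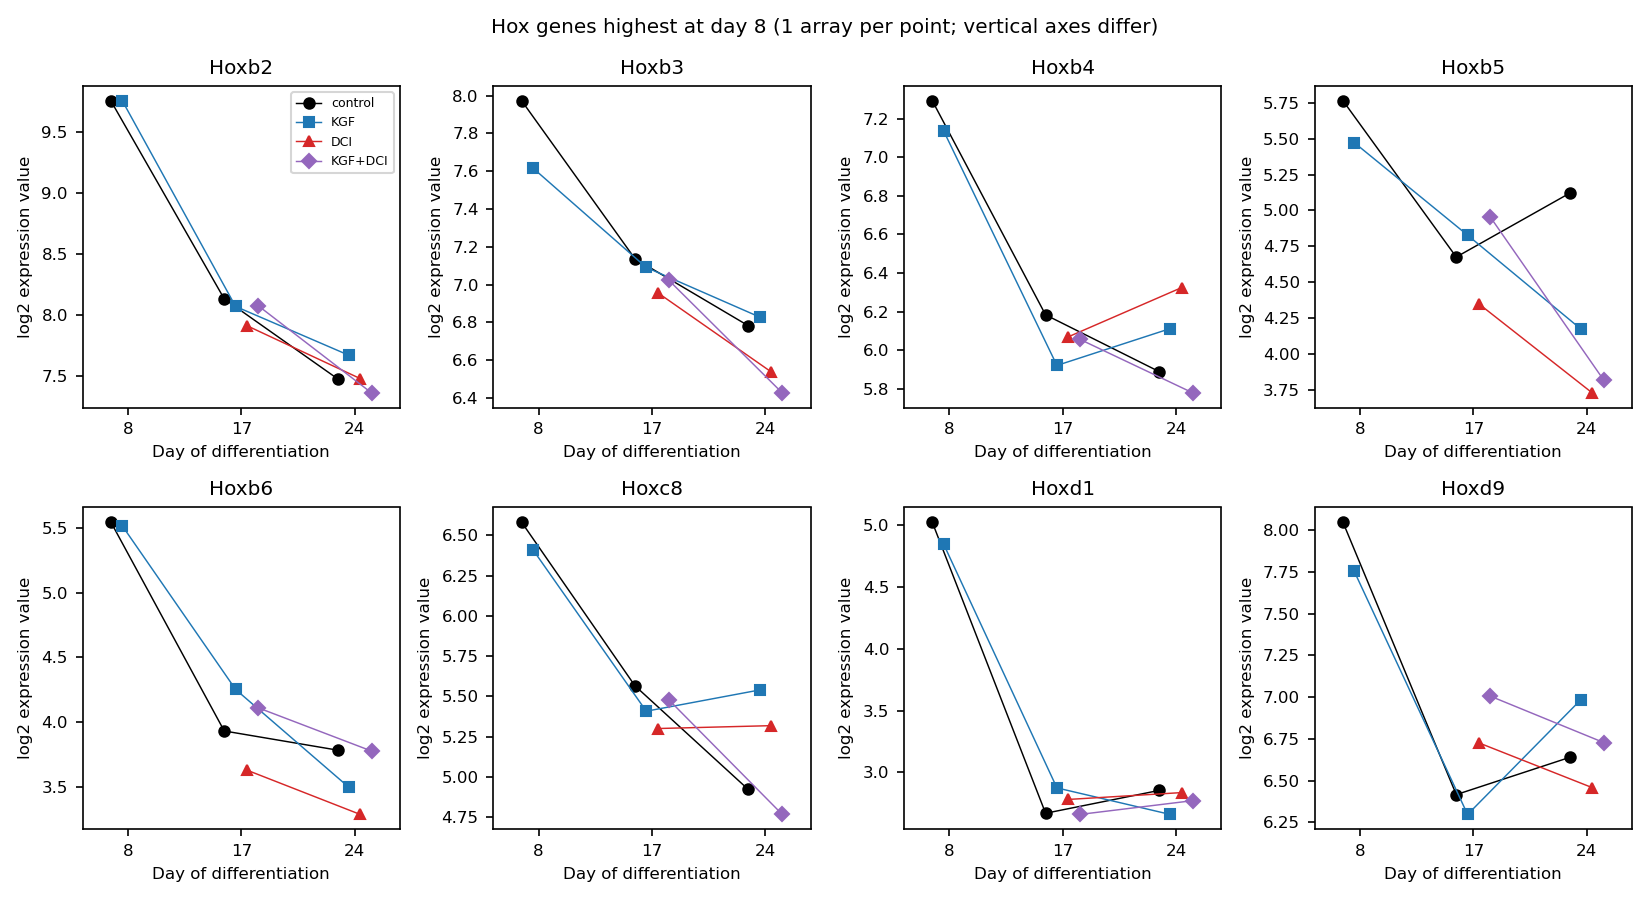
Log2 expression values (vertical axes, which differ between panels) of 8 Hox genes highest at day 8 against the day of differentiation (evenly spaced), with 1 array per point and lines joining arrays of the same treatment. Hoxb2 and Hoxb3 decline in both steps, whereas Hoxd1 lies between 2.66 and 2.87 on all 8 arrays of days 17 and 24.

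Among the genes that rose, Hoxa2, which sets the identity of the second pharyngeal arch, read 4.31 in the day 8 control and 3.80 with KGF. At day 17 it read 5.24, 5.41, 5.30 and 5.02 in control, KGF, DCI and both, and at day 24 it returned to 4.43, 4.42, 4.34 and 4.50. The 4 day 17 arrays lay above all others. The steps were 1.23 ± 0.17 (2.34-fold higher, adjusted p = 0.00019) and -0.82 ± 0.13 (1.77-fold lower, adjusted p = 0.00073, 4 of 4 pairs).

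Hoxc4, a gene of the neck region, had the same shape. It read 5.70 on both day 8 arrays, 6.71, 6.66, 6.50 and 6.68 at day 17, and 5.77, 5.42, 5.86 and 5.78 at day 24. Again the 4 day 17 arrays lay above all others. The steps were 0.91 ± 0.15 (1.87-fold higher, adjusted p = 0.00061) and -0.93 ± 0.11 (1.91-fold lower, adjusted p = 0.00014). Hoxa2 and Hoxc4 kept both calls in all 10 fits that left out an array.

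The other 2 rises were smaller. Hoxc13, a gene of hair and nail, read 4.27 and 4.30 at day 8 and 5.17, 4.94, 4.71 and 4.45 at day 17. Its difference was 0.61 ± 0.19 (1.52-fold, adjusted p = 0.027). Hoxa4, a gene of the neck region, read 2.76 and 3.05 at day 8 and 3.40, 3.37, 3.34 and 3.84 at day 17, values low on the array scale, with a difference of 0.50 ± 0.17 (adjusted p = 0.036). Neither passed without the day 8 control array, whose control signals stood apart (0.45, adjusted p = 0.23 for Hoxc13, and 0.40, adjusted p = 0.24 for Hoxa4). Hoxc13 was also lost without the day 17 control or the day 17 KGF array, and Hoxa4 without the day 8 KGF, day 17 control, day 24 control or day 24 KGF array. The 9 other genes called in this step kept their call without the day 8 control array.

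By position, 4 of 7 genes of paralog groups 1 to 3 passed from day 8 to day 17 (1 higher, 3 lower), 5 of 12 of groups 4 to 8 (2 higher, 3 lower), and 2 of 14 of groups 9 to 13 (1 higher, 1 lower). Of all genes 42.4% passed in this step, and the positions were not tested against each other. Hoxa13, Hoxb9, Hoxb13, Hoxc10, Hoxd10, Hoxd11, Hoxd12 and Hoxd13 of groups 9 to 13 had means under the 25th percentile of all values (4.54). So did Hoxa4, Hoxb1, Hoxb6, Hoxb7, Hoxc5 and Hoxd1 of groups 1 to 8. RMA compresses dim values, so signal level and position cannot be told apart in these counts. By cluster the calls were 2 higher in a, 4 lower in b, 2 higher and 1 lower in c, and 2 lower in d. Paralogs were called in opposite directions in 2 groups. In group 2, Hoxa2 rose and Hoxb2 fell, and in group 4, Hoxa4 and Hoxc4 rose and Hoxb4 fell.

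Genes of other cell types moved over the same step, in which 21.4% of all genes were higher and 21% lower. All 8 macrophage markers measured were higher at day 17 (median difference 4.59), with a mean level of 4.99 on both day 8 arrays and from 6.97 to 9.26 at day 17. Of 8 blood progenitor and erythroid markers 6 were lower and 2 higher, with mean levels of 9.42 to 9.45 at day 8 and 5.89 to 6.13 at day 17. Of 10 mesenchyme and fibroblast markers 7 were higher and 3 lower, and the mean level went from between 9.19 and 9.22 to between 10.29 and 10.50. Of 8 neural markers 6 were higher, with mean levels of 4.74 to 4.86 at day 8 and 6.06 to 6.48 at day 17. Of 6 skeletal muscle markers 5 were higher, of 7 epithelial ones 5 higher and 2 lower, and of 8 visceral endoderm and liver ones 4 higher. Of 6 endothelial markers 3 were lower, and of 5 cartilage markers 3 lower and 1 higher. Their part in the Hox differences was not tested.

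From day 17 to day 24 the steps were smaller, and none of the Hox genes called reached a 2-fold difference. Hoxa2, Hoxb1, Hoxb2, Hoxb3, Hoxb6 and Hoxc4 fell, and Hoxa3, Hoxa5 and Hoxb7 rose. These were 6 of 33 lower, where 22.5% of all genes were lower, and 3 higher, where 14.8% of all genes were higher. Both shares lay under the background. At an unadjusted p under 0.05 there were 10. All 9 genes moved the same way in 4 of 4 matched pairs, and the arrays of the 2 days did not overlap except for Hoxb6. The calls again rest on these same values, so this adds no separate support. The share of all genes that did so was not counted. Hoxa9 and Hoxc6 also moved the same way in 4 of 4 pairs without passing.

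Hoxb1, which specifies the fourth rhombomere of the hindbrain, read 3.16, 3.20, 3.17 and 3.53 at day 17 in control, KGF, DCI and both, and 2.88, 2.67, 2.96 and 2.73 at day 24. All 4 later arrays were lower, and all values were low on the array scale. The difference was -0.46 ± 0.11 (adjusted p = 0.0085). Day 8 values were 3.49 and 3.26.

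Hoxa3, needed for thymus, thyroid and parathyroid, read 5.08 and 5.40 at day 8, 5.14, 5.37, 5.28 and 5.25 at day 17, and 5.85, 5.78, 5.66 and 5.68 at day 24. The 4 day 24 arrays lay above all others, with a difference of 0.48 ± 0.11 (1.40-fold higher, adjusted p = 0.0049). The mean of its 4 probe sets gave 0.06 and did not pass, and 1 of them turned the direction, as described with the probe sets.

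Hoxa5, the Hox gene best known from lung mesenchyme, read 6.06 and 6.14 at day 8, and 5.99, 6.33, 6.38 and 6.26 at day 17. At day 24 it read 6.60, 6.51, 6.73 and 6.46, above all earlier arrays. The difference was 0.34 ± 0.11 (1.26-fold higher, adjusted p = 0.034). It was lost in 6 of the 10 fits that left out an array, namely day 17 control, DCI or both and day 24 control, KGF or DCI, with values from 0.24 to 0.41 over all 10. The other Hoxa5 probe set turned the direction (-0.57 ± 0.19), as described with the probe sets.

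Hoxb7 read from 3.66 to 3.87 at day 17 and 4.05, 3.93, 4.22 and 4.25 at day 24, all low on the array scale. The difference was 0.31 ± 0.11 (1.24-fold higher, adjusted p = 0.045). Its call was kept in just 2 of the 10 fits that left out an array, those without the day 17 control or the day 24 KGF array. Hoxb6 kept its call only without the day 17 DCI, day 24 control, or day 24 KGF with DCI array.

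By position, 5 of 7 genes of paralog groups 1 to 3 passed (1 higher, 4 lower), 4 of 12 of groups 4 to 8 (2 higher, 2 lower) and 0 of 14 of groups 9 to 13, where 1 had an unadjusted p under 0.05 (Hoxd11, 0.24 ± 0.10, adjusted p = 0.076). Of all genes 37.3% passed in this step, and again the positions were not compared by a test. The dim signals of groups 9 to 13 named for the first step limit these counts too. By cluster, a had 2 higher and 1 lower, b had 1 higher and 4 lower, c had 1 lower, and d had 0 of 8. With only the 6 arrays without DCI, 3 Hox genes passed rather than 9. In that fit Hoxa3 (0.56, adjusted p = 0.054), Hoxa5, Hoxb1, Hoxb3, Hoxb6 and Hoxb7 no longer passed, with the same directions. Over this step 14.8% of all genes were higher and 22.5% lower. Of the markers, 7 of 7 epithelial, 6 of 10 mesenchyme and fibroblast and 5 of 6 skeletal muscle ones were higher, and 5 of 8 macrophage ones were lower. Their mean levels, at day 17 and then day 24, were 10.28 to 10.88 and 10.82 to 11.51 (epithelium), 10.29 to 10.50 and 10.67 to 10.79 (mesenchyme), 5.60 to 7.66 and 7.06 to 7.60 (skeletal muscle), and 6.97 to 9.26 and 5.93 to 9.18 (macrophages). Their part in the Hox differences was not tested.

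**Figure D3:**
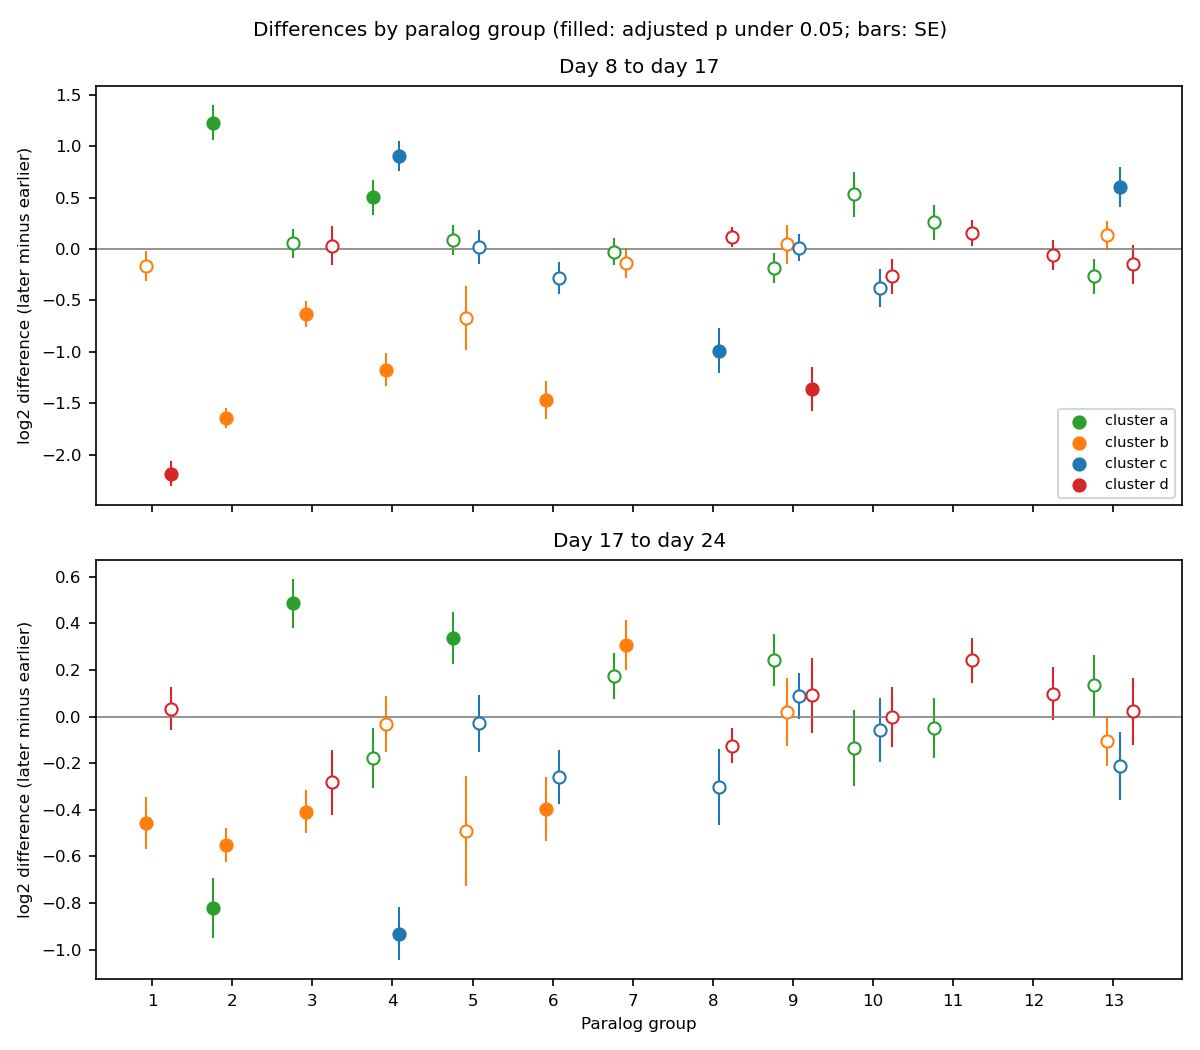
Log2 differences of the 33 Hox genes from day 8 to day 17 (upper panel) and from day 17 to day 24 (lower panel) against paralog group, coloured by cluster, with bars of 1 standard error and filled points for adjusted p under 0.05. Cluster b genes of groups 2 to 6 lie below 0 in the upper panel. Groups 9 to 13, in which many genes had dim signals, hold no filled point in the lower panel.

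Among paralog group 13, which acts at the tail end, limb tips and hindgut, Hoxc13 is described above and the other 3 passed in no comparison. Hoxa13, which acts in digits, hindgut and genital tract, read 3.70 and 4.14 at day 8, 3.51, 3.91, 3.51 and 3.46 at day 17, and 3.87, 3.60, 3.73 and 3.73 at day 24. Hoxb13, a gene of the tail and prostate, lay between 3.72 and 4.18 over the 10 arrays. Hoxd13, which acts with Hoxa13 in the digits, read from 4.01 to 4.53. Their arrays overlapped between all days. Of the rest of the family, Hoxa7, Hoxb9, Hoxc5, Hoxc6, Hoxc9, Hoxc10, Hoxd3, Hoxd8, Hoxd10, Hoxd11 and Hoxd12 passed in no comparison either. Among them Hoxc10 had day 8 values (3.70 and 3.30) above all 4 of day 17 (2.88 to 3.26), with a difference of -0.38 ± 0.18 that did not pass (adjusted p = 0.12).

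With DCI, 2 neighbouring genes of cluster a, Hoxa10 and Hoxa11, were higher and no Hox gene was lower. Hoxa10 and Hoxa11 act in limb, kidney and the female reproductive tract. Of all genes tested 7.27% were higher and 8.09% lower with DCI, so 2 of 33 higher and 0 of 33 lower lay under the background in both directions. At an unadjusted p under 0.05 there were 5. The median difference was 0.03 for Hox genes and -0.01 for all genes.

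Hoxa10 read 5.12 in the day 8 control and 4.67 with KGF. At day 17 it read 5.46 (control), 5.32 (KGF), 6.51 (DCI) and 5.63 (both treatments), and at day 24 it read 5.17, 5.49, 6.04 and 5.67. The 4 arrays with DCI lay above the 4 without it at days 17 and 24, and the 2 with DCI alone were the highest. Against control, DCI alone was higher by 1.05 (day 17) and 0.87 (day 24), whereas against KGF alone the combination was higher by 0.32 and 0.19. The fitted difference was 0.61 ± 0.16 (1.52-fold higher, adjusted p = 0.031).

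Hoxa11 read 5.62 and 5.23 at day 8, 5.95, 5.38, 6.51 and 5.96 at day 17, and 5.59, 5.73, 6.42 and 5.87 at day 24, in the same order. The 2 arrays with DCI alone were again the highest, and the day 24 array with both lay below the day 17 control, so that the groups overlapped. DCI alone exceeded control by 0.56 and 0.84, and DCI with KGF exceeded KGF alone by 0.59 and 0.14. The fitted difference was 0.53 ± 0.13 (1.45-fold higher, adjusted p = 0.018, higher in 4 of 4 pairs).

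Hoxa9, the next gene in the cluster and a known regulator of blood progenitors, read 5.31, 5.43, 5.48 and 5.49 at day 17 and 5.52, 5.47, 6.03 and 5.66 at day 24. It was higher in 4 of 4 pairs by 0.06 to 0.51, and the difference of 0.23 ± 0.11 did not pass (adjusted p = 0.22). Its day 8 values were 5.57 and 5.43. The other probe set of Hoxa9 passed at 0.57 ± 0.13 (adjusted p = 0.021 over the 34945 probe sets).

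Both DCI calls rested on few arrays. Hoxa10 did not pass without the day 17 control, KGF or DCI array or the day 24 control, DCI, or KGF with DCI array (adjusted p = 0.057 to 0.124), and Hoxa11 did not pass without the day 17 KGF or DCI array or the day 24 control or DCI array (adjusted p = 0.055 to 0.075). The other probe set of Hoxa10, at 3.12 to 3.62 on all arrays, gave 0.03 ± 0.10 for DCI and -0.23 ± 0.13 from day 8 to day 17, where the set used gave 0.53 ± 0.22, neither passing in that step. Markers of other cell types moved with DCI too, where 7.27% of all genes were higher and 8.09% lower. All 8 macrophage markers were lower (mean level 8.78 to 9.26 without DCI and 5.93 to 7.13 with it, at days 17 and 24), and 6 of 7 hindgut and intestine markers were higher (5.47 to 6.04 without and 6.54 to 7.37 with it), as were 5 of 7 epithelial markers (10.28 to 11.05 without and 10.60 to 11.51 with it). Their part in the Hoxa10 and Hoxa11 differences was not tested.

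**Figure D4:**
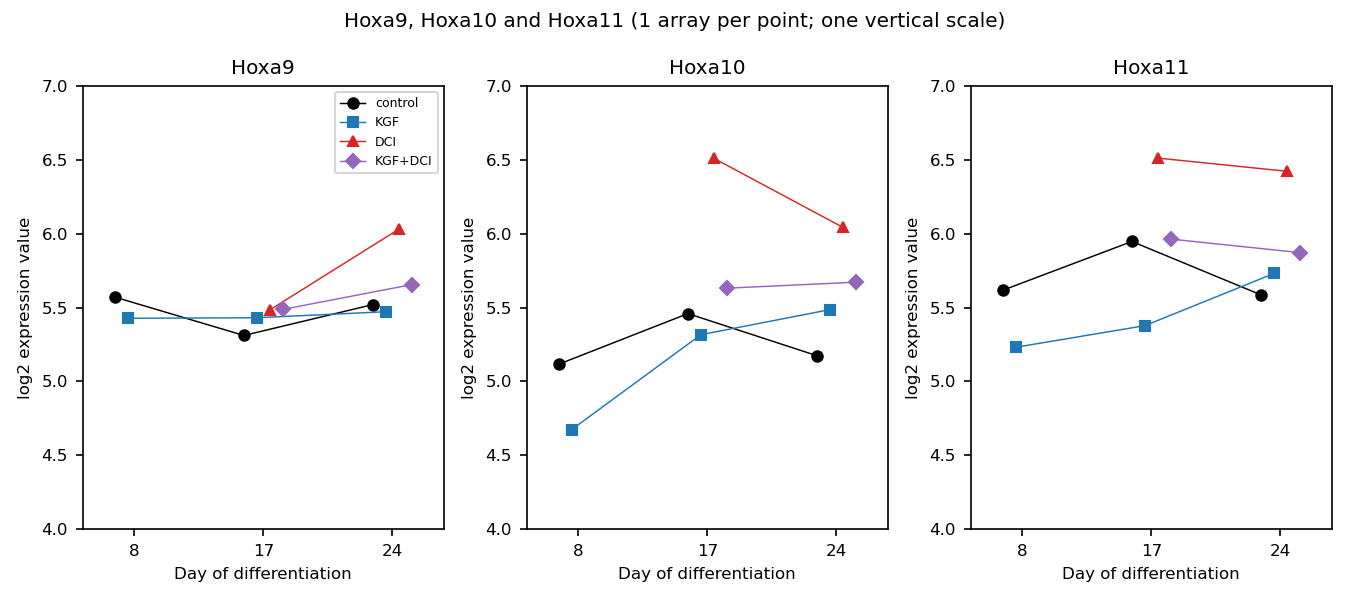
Log2 expression values (vertical axes on a common scale) of Hoxa9, Hoxa10 and Hoxa11 against day of differentiation (evenly spaced), with 1 array per point and lines joining arrays of the same treatment. The arrays with DCI alone of Hoxa10 and Hoxa11 sit between 6.04 and 6.51, above every array of the other treatments.

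Of the Hox genes that did not pass for DCI, Hoxd8 had the smallest adjusted p. It read 8.28, 8.18, 8.11 and 8.09 at day 17 and 8.21, 8.21, 7.90 and 7.84 at day 24, in control, KGF, DCI and both. The 4 arrays with DCI lay below the 4 without it, and the difference was -0.24 ± 0.07 (adjusted p = 0.057). The other Hoxd8 probe set gave -0.05 ± 0.10 (adjusted p = 0.85), and at day 17 its arrays with DCI (7.19 and 7.09) lay above those without (6.98 and 7.03). Hoxb3 (-0.22 ± 0.09, adjusted p = 0.15, and -0.04 ± 0.09 in its other probe set) and Hoxd10 (0.31 ± 0.13, adjusted p = 0.15) had an unadjusted p under 0.05 only.

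KGF changed no Hox gene past the threshold, where 0.0055% of all genes tested passed. Hoxa11 alone had an unadjusted p under 0.05, at -0.38 ± 0.11 (limma, adjusted p = 0.40), with lower values in 4 of 5 pairs. The differences of the 33 genes ran from -0.38 to 0.20, with a median standard error of 0.11.

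Whether the effect of DCI changed between days 17 and 24 was tested with an interaction term on the 8 arrays of those days (3 residual degrees of freedom). No Hox gene passed, where 2.51% of all genes did, and 2 had an unadjusted p under 0.05. Hoxd9 was higher with DCI at day 17, by 0.31 without and 0.71 with KGF, and lower at day 24, by -0.18 and -0.26. The change in its DCI effect was -0.73 ± 0.19 (adjusted p = 0.093). Hoxc13 went the other way at 0.63 ± 0.22 (adjusted p = 0.20), its pairs with and without DCI differing by -0.46 and -0.49 at day 17 and by 0.35 and -0.04 at day 24.

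The interaction of KGF with DCI, which asks whether the effect of the 2 together differs from the sum of each, passed for no Hox gene and for 0% of all genes (267 genes had an unadjusted p under 0.05). Hoxa10 (-0.71 ± 0.26, 95% interval -1.33 to -0.10) and Hoxc5 (-0.51 ± 0.20) had an unadjusted p under 0.05, with adjusted p = 1.00 in both. For Hoxa11 the term was -0.34 with an interval from -0.95 to 0.27, which does not settle whether its DCI effect differed beside KGF.

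Of the 33 Hox genes 11 had several probe sets, and for some the choice decided the result. A second Hoxa5 probe set read 4.98 and 4.54 at day 8, 6.18, 6.76, 6.57 and 6.91 at day 17, and 6.36, 5.67, 6.06 and 6.06 at day 24, in the usual order of treatments. All later arrays lay above day 8. In the fit over 34945 probe sets its steps were 1.77 ± 0.25 (adjusted p = 0.00022) and -0.57 ± 0.19 (adjusted p = 0.041), whereas the brighter Hoxa5 set gave 0.09 and 0.34. Hoxa5 thus either rose early and fell or rose late, depending on the probe set.

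A second Hoxa3 set read 3.80 and 3.85 at day 8, 4.41 to 4.70 at day 17 and 3.94 to 4.22 at day 24. Its steps were 0.69 ± 0.15 (adjusted p = 0.0044) and -0.41 ± 0.11 (adjusted p = 0.019), against 0.06 and 0.48 for the brightest set. For Hoxc5, a neighbour of Hoxc4, a second set read 4.12 or less at day 8, 4.80, 5.01, 4.50 and 4.49 at day 17, and from 3.78 to 3.99 at day 24. It rose by 0.76 ± 0.16 (adjusted p = 0.0031) and fell again by 0.82 ± 0.12 (adjusted p = 0.00054), while the brighter set lay between 4.01 and 4.44 throughout and gave 0.02 and -0.03. The remaining sets of Hoxa3 and Hoxc5 did not pass. In these second sets of Hoxa3 and Hoxc5 the 4 day 17 arrays lay above all others, as in Hoxa2 and Hoxc4. In the second Hoxa5 set days 17 and 24 overlapped, and the control was higher at day 24 (6.36) than at day 17 (6.18). A second Hoxa9 set gave -0.51 ± 0.13 from day 17 to day 24 (adjusted p = 0.014), against 0.24 for the set used. For Hoxc6 the set used gave -0.26 ± 0.12 in that step and 2 others gave 0.28 ± 0.13 and 0.33 ± 0.14, with none of the 3 passing.

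**Figure D5:**
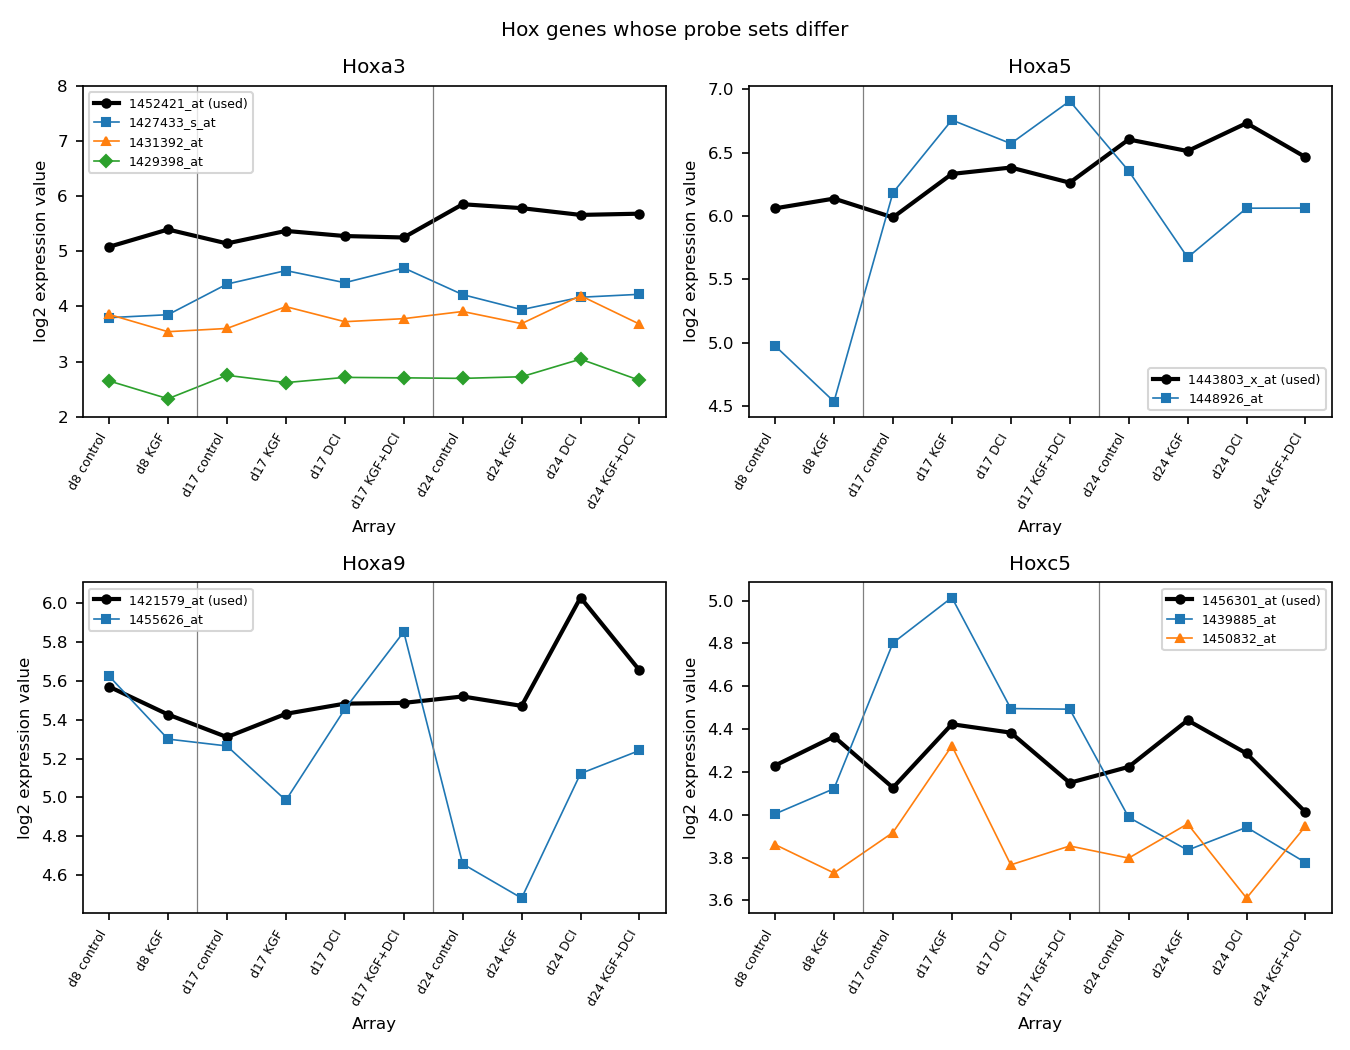
Log2 expression values of each probe set of Hoxa3, Hoxa5, Hoxa9 and Hoxc5 (vertical axes) on the 10 arrays (horizontal axes, with grey lines between days), the thick black line being the set used. A second set of Hoxa5 goes from 4.54 and 4.98 at day 8 to 6.18 or more at day 17, where the set used stays between 5.99 and 6.38.

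Of 10 measured genes of the TALE class (Pbx, Meis, Pknox and Tgif), which includes the DNA-binding partners of Hox proteins, 7 were lower and 0 higher at day 17, where 21% of all genes were lower. The median difference was -0.79 against -0.02 for all genes, and Pbx4, Pknox1 and Tgif1 did not pass. Pbx3 read 11.36 and 10.96 at day 8 and from 8.82 to 9.43 at day 17, a difference of -2.16 ± 0.13. Meis1 went from 8.79 and 8.60 to between 8.07 and 8.30 (-0.59 ± 0.10), and Meis2 from 10.21 and 10.04 to between 9.22 and 9.45 (-0.85 ± 0.12). For all 3 the day 8 arrays were above all later ones. From day 17 to day 24, 6 were lower, Meis1 by -0.74 ± 0.07, and 2 higher (Pknox2 and Tgif1). Of all genes 22.5% were lower and 14.8% higher in that step. None of the list passed for DCI, where 7.27% of all genes were higher and 8.09% lower.

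Genes of the kinds that switch clusters on were counted too. Of 8 Cdx and other ParaHox genes Cdx2, the caudal and intestinal regulator, was the one called. It read 7.20 and 7.17 at day 8, 6.09, 5.51, 7.19 and 5.94 at day 17, and 4.72, 4.78, 5.94 and 5.50 at day 24, in control, KGF, DCI and both. It fell in both steps (-1.43 ± 0.25 and -0.95 ± 0.19) and was higher with DCI by 0.87 ± 0.19 (adjusted p = 0.010). For the list this made 1 of 8 lower in each step, under the 21% and 22.5% of all genes. With DCI it made 1 of 8 higher, where 7.27% of all genes were higher.

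Of 15 retinoid signalling genes 8 were higher and 0 lower at day 17, where 21.4% of all genes were higher, with a median difference of 0.46 against -0.02 for all genes. Aldh1a2, which makes retinoic acid in embryonic mesoderm, went from 4.28 and 4.34 to between 8.78 and 9.45, by 5.00 ± 0.22, and Aldh1a1 rose by 7.15 ± 0.18. From day 17 to day 24, 5 were higher and 3 lower, where 14.8% of all genes were higher and 22.5% lower. Among the lower were Aldh1a2 (-0.95 ± 0.16) and Rarb, a retinoic acid receptor and target gene, which went from between 8.04 and 8.21 to between 7.27 and 7.47 (-0.75 ± 0.10). Rarb had not passed from day 8 to day 17 (-0.04 ± 0.13). Cyp26a1, which breaks retinoic acid down, passed in neither step (0.46 ± 0.31 and -0.48 ± 0.24). Its DCI effect changed between the days by -1.30 ± 0.24 (adjusted p = 0.022). With DCI, alone and beside KGF, it read 6.71 and 7.40 at day 17 and 5.96 and 5.90 at day 24, while the 6 arrays without DCI lay between 6.90 and 7.38. Aldh1a1 was the other retinoid gene called for DCI by day (-0.78 ± 0.09). These were 2 of 15, where 2.51% of all genes were called. With DCI 1 of the 15 was lower (Aldh1a2, -0.54 ± 0.16), where 8.09% of all genes were lower.

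More of the chromatin regulators of the clusters were lower than higher in both steps. Of 18 Polycomb genes 7 were lower and 3 higher at day 17 (median difference -0.14), and 9 lower and 2 higher at day 24 (median difference -0.22). Of all genes 21% and 22.5% were lower in the 2 steps, and 21.4% and 14.8% higher. Ezh2, the enzyme that writes the silencing mark, read 10.49 and 10.44 at day 8, from 9.30 to 9.49 at day 17, and from 8.13 to 8.40 at day 24, with steps of -1.10 ± 0.10 and -1.13 ± 0.07. Cbx2, a reader of the mark, fell by 1.60 ± 0.14 and then by 0.82 ± 0.11, while Cbx6 rose by 1.70 ± 0.12 and then fell by 0.48 ± 0.09. Of 10 trithorax-group and H3K27 demethylase genes 9 were lower at day 17 and 8 at day 24, with 0 higher in either step. Kdm6b, which removes the mark, fell by 0.86 ± 0.07 in the first step and by 0.18 ± 0.06 in the second. With DCI 1 of 18 Polycomb genes was lower (Bmi1, -0.38 ± 0.07), as was 1 of 10 trithorax-group and demethylase genes (Psip1, -0.34 ± 0.06). Of all genes 8.09% were lower with DCI.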

How the data were processed

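The authors deposited log2 expression values of 45101 probe sets on 10 Affymetrix arrays, computed in Bioconductor (per the labels) by RMA, which the submitters' processing notes name. The RMA version is not given in the sources used here. RMA quantile-normalises arrays, so a shift shared by most genes would be removed, and it compresses dim values. No detection call was used. Names came from the platform annotation, and 932 with several symbols were left out, as were those with no symbol and control probe sets. Each gene took its brightest probe set.

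Differences were fitted with limma 3.58.1 in R 4.3.3 (eBayes with a mean trend), with Benjamini-Hochberg adjustment over 18193 genes. The day terms used all 10 arrays, and the interactions the 8 arrays of days 17 and 24. The code was tested on simulated data. The number of arrays limits the precision, with a median standard error of 0.12 for a Hox gene's DCI difference. The Hox genes and all lists were chosen with earlier results of these data known. Genes given in full were, per comparison, up to 8 called rises and 8 called falls plus Hoxa5, Hoxa9, Hoxa10, Hoxa13, Hoxb1, Hoxb4, Hoxb5, Hoxb13, Hoxc8 and Hoxd13. Up to 4 called genes per list were named, plus Cdx2, Meis1, Meis2, Ezh2, Rarb and Cyp26a1. Other probe sets are given where they turn or at least halve a difference that passed or is described, the interactions excepted. AGGTCA was searched in addition to the motifs of the rule, after the data were seen. No protein sequence was used here. Alternatives were other variance models, removal of the dimmest 40% of genes, averaging or swapping the probe sets of a gene, a second quantile normalisation, other thresholds, subsets of arrays, and each array left out. Plots used matplotlib 3.10.9 (Python 3.11.15).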

Additional observations from a re-analysis of the deposited data

How the results depend on the processing

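With the lowest 40% of genes removed, which leaves 8 Hox genes, 5 passed from day 8 to day 17, 4 from day 17 to day 24 and 1 for DCI (neither Hoxa10 nor Hoxa11). Asking for 2-fold in addition left 6, 0 and 0. The 6 arrays without DCI gave 3 from day 17 to day 24. At adjusted p under 0.10, 1 Hox gene passed for DCI by day (Hoxd9). Over the fits without 1 array, the counts ran from 9 to 13 (day 8 to day 17), from 6 to 8 (day 17 to day 24), from 0 to 3 for DCI and from 0 to 1 for DCI by day, the 1 being the fit without the day 17 control. The DCI count was 0 without the day 17 DCI, day 24 control or day 24 DCI array. It was 1 without the day 17 control, day 17 KGF (neither Hoxa10 nor Hoxa11) or day 24 KGF with DCI array. From day 17 to day 24 the mean of the probe sets turned Hoxa5 (-0.11), and other probe sets turned Hoxa3 (-0.41) and Hoxa5 (-0.57). Why these values moved was not tested, beyond the fewer genes left by the filter and the fewer arrays without DCI. Of the values of the 22 called differences over all alternatives, 328 kept direction and call, 70 kept the direction only and 3, those above, turned. Other probe sets also turned uncalled differences of Hoxa9, Hoxa10 and Hoxc6, as described. KGF and KGF by DCI stayed at 0 in every alternative run. No paired analysis was possible because each condition had 1 array, so that no replicate number links arrays. The pairs counted in the text are conditions matched by treatment or day. Dim signals limit Hoxa4, Hoxb1 and the later Hoxd1 values. Hoxb6 and Hoxb7 also had means under the 25th percentile of all values (4.54), as did Hoxa2 at days 8 and 24 and Hoxc13 at day 8. Their folds are uncertain, since RMA compresses dim values.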

Other observations

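Further lists of genes that work with or beside Hox genes in embryos were counted in the same fits. Of 15 factors of limb, genital and lung mesenchyme, 11 were lower and 2 higher at day 17 than at day 8 (median difference -1.24), where 21% of all genes were lower and 21.4% higher. Hand2, a limb and heart factor, read 11.89 and 11.69 at day 8 and from 8.97 to 9.99 at day 17, and Fgf10, the mesenchymal signal that drives lung branching, read 7.68 and 7.59 and then from 5.00 to 6.33. Their steps were -2.66 ± 0.13 and -2.66 ± 0.16. Tcf21 (1.11 ± 0.21) and Prrx1 (1.76 ± 0.14), both mesenchyme factors, rose. With DCI Fgf10 was higher by 1.14 ± 0.12 and Hand2 by 0.50 ± 0.10, while Tcf21 and Tbx4 were lower by -0.68 ± 0.16 and -0.64 ± 0.18. These were 2 of 15 higher and 2 lower, where 7.27% of all genes were higher and 8.09% lower. Tbx4 was low on the array scale, at 3.21 to 3.65 with DCI and 3.70 to 4.42 without it at days 17 and 24. From day 17 to day 24, 2 of the 15 were higher and 6 lower, where 14.8% of all genes were higher and 22.5% lower.

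Of 9 genes of hindbrain segments and nearby brain regions (Otx2, En1 and En2 among them) 1 was higher and 2 lower at day 17. Of all genes 21.4% were higher and 21% lower in that step. Egr2, which marks the third and the fifth rhombomere and is also used by other cells, rose by 1.55 ± 0.34 and again by 1.56 ± 0.25 at day 24, and Irx3 fell by 1.31 ± 0.12 in the first step. Of 12 axial Wnt, Fgf and TGF-beta family signals 1 rose (Wnt5a, by 0.89 ± 0.22) and 1 fell (Nodal, by 1.12 ± 0.20) in the first step, both under these shares. With DCI 1 of the 12 was lower (Fgf8, -0.51 ± 0.13), where 8.09% of all genes were lower.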
